A study of Mus musculus with 4 samples.

Results

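The let-7 family was measured in bronchoalveolar stem cells (BASCs) with and without c-Myc depletion. It comprised mmu-let-7a, mmu-let-7b, mmu-let-7c, mmu-let-7d, mmu-let-7e, mmu-let-7f, mmu-let-7g and mmu-let-7i, written below without the prefix for mouse, together with miR-98, which carries another name but the same seed. Members were chosen by name alone, as every mouse assay for a mature let-7 guide strand plus miR-98, and 9 of the 517 mouse miRNA assays met that rule. BASCs are lung cells proposed to renew both the bronchiolar and the alveolar epithelium, and they had been sorted from lungs of ICR mice aged 4 to 6 weeks as CD31neg, CD45neg, CD34pos and ScaIpos cells and then grown on irradiated mouse embryonic fibroblasts. For the established cells the study's results name collagen-coated dishes and its methods name the fibroblasts. Whether feeder cells were present in the profiled cultures is therefore not known. A total of 4 RNA samples were profiled, 2 of control BASCs, also called wild type, and 2 of c-Myc depleted BASCs. The depleted cells were stable lines made with lentiviral c-Myc shRNA and kept through several generations of puromycin selection, and the sources used here do not say which shRNA each sample carried or whether the profiled controls had received the control vector. Effects of c-Myc depletion and of transduction or selection therefore cannot be told apart in these samples. Nothing says that the 2 samples of a group came from separate cultures, so p-values measure only the spread between these samples, which may be technical.

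The let-7 miRNAs guide the silencing machinery to messenger RNAs that pair with their seed, the bases 2 to 8 counted from the 5′ end. They accumulate as cells differentiate, are held low in many stem cells and tumours by LIN28, which blocks the maturation of their precursors, and repress growth genes such as Hmga2 and Myc itself. In other cell systems c-Myc has been found to repress let-7 genes and to raise Lin28b, so the family is a usual readout when c-Myc is removed. The cards measured neither Lin28 nor any messenger RNA, c-Myc included. The study measured c-Myc in its stable lines separately, as messenger RNA by real-time PCR and as protein by western blot, and calls the depletion incomplete.

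The 9 mature sequences are shown because the assays had to tell apart RNAs that differ by as little as 1 base. Each is printed 5′ to 3′ with the seed in capitals, from the RefSeq annotation of GRCm38.p6.
let-7a: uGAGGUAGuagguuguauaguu
let-7b: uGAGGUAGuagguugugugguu
let-7c: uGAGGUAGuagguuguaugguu
let-7d: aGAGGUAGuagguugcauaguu
let-7e: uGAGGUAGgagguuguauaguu
let-7f: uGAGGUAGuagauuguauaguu
let-7g: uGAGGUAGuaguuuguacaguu
let-7i: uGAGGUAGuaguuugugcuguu
miR-98: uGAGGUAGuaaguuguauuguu
All 9 were 22 bases long and carried the same seed, GAGGUAG, so they were alike over the stretch that selects targets and differed only outside it. let-7d was the single member that began with A, and the other 8 began with U. Of the 36 pairs of members, 4 differed at 1 base, 10 at 2 bases, 11 at 3 bases, 9 at 4 bases, and 1 each at 5 and at 6 bases. The RefSeq table held 11 mature mouse names with this seed, and the 2 not assayed on the cards were let-7k and miR-1961.

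The members are encoded at several sites of the mouse genome, and 12 RefSeq hairpins held a member sequence. On chromosome 13 a cluster on the minus strand held let-7a at chr13:48538239-48538260, let-7f at chr13:48537889-48537910 and let-7d at chr13:48536078-48536099. On chromosome 15 let-7c lay at chr15:85706616-85706637 and let-7b at chr15:85707325-85707346, both on the plus strand. let-7f had a second gene on the X chromosome at chrX:151912353-151912374, followed on the plus strand by miR-98 at chrX:151913229-151913250, both within Huwe1. let-7c had a second gene at chr16:77599672-77599693 on the plus strand, next to miR-99a. let-7e lay at chr17:17830366-17830387 on the plus strand, between miR-99b and miR-125a. The remaining members stood alone, let-7g at chr9:106178846-106178867 on the plus strand within Wdr82 and let-7i at chr10:122985698-122985719 on the minus strand. An assay of a mature miRNA reads the sum of its genes, so let-7a, let-7c and let-7f cannot be assigned to a single locus.

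The assays were TaqMan real-time PCR reactions dried on 2 cards of 384 wells, A and B. Each well gave a threshold cycle (CT), the cycle at which its product crossed a set level, so a lower CT means more RNA and 1 cycle is close to a doubling. Between 334 and 351 of the 768 wells gave a CT in each sample, and 222 to 229 mouse miRNAs were below the CT limit of 35. The U6 RNA wells of card A, to which the levels below refer, averaged CT 18.89 and 19.11 in control and 18.86 and 18.84 in depleted BASCs. Of the miRNAs typical of epithelium, miR-203 and miR-205 gave no CT below 35 in any sample, and the other 5 of the 7 assayed came no lower than CT 31.5. By immunostaining the study detected SP-C, of alveolar type II cells, and CCA, of Clara cells, in most colonies of passaged BASCs. All 5 miRNAs typical of mesenchymal cells (miR-143, miR-145, both strands of miR-199a and miR-214) were detected, down to CT 24.8. Their summed level, relative to U6 and multiplied by 1000, was 34.4 and 39.6 in control and 50.2 and 48.2 in depleted BASCs. The blood list summed to 0.307 and 0.101 in control and 0.071 and 0.165 in depleted BASCs, and the epithelial list to 0.435 and 0.148 against 0.083 and 0.096. The endothelial pair, both strands of miR-126, summed to 1.08 and 1.22 in control and 0.283 and 0.252 in depleted BASCs. The groups did not overlap in these sums, nor in the epithelial sums, also lower, nor in the mesenchymal sums, which were higher. Of the 5 detected epithelial miRNAs only 1 had a CT below 35 in all samples, so the epithelial difference lies near the detection limit. The shares given next do not cover miRNAs that missed that limit in a sample. Of card A miRNAs with a CT below 35 in all samples, 13.8% lay lower in both depleted samples and 44.6% higher. miR-126-3p, the endothelial strand tested, was called lower (log2 change -2.18, by limma). The 2 depleted CT values of miR-126-3p carried 8 decimals in the deposited table, as did a CT of 13 miRNAs in all, and those of the let-7 members at most 6. On that scale the 9 let-7 members summed to 6.34 and 8.94 in control and to 10.9 and 9.29 in depleted BASCs. The part of feeder, other mesenchymal or endothelial cells in the let-7 levels was not tested, and in bulk samples fewer cells of a type and less RNA per cell cannot be told apart.

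All 9 members gave a CT below 35 in all 4 samples, each from 1 well of card A. ΔCT, the CT minus the U6 mean of the same card, was lowest for let-7i and highest for miR-98, so let-7i was read as the most abundant member and miR-98 as the least. The control means of ΔCT were 8.88 ± 0.271 for let-7i (SD, n = 2, as for all values after ±) and 15.0 ± 0.152 for miR-98, a span of 6.10 cycles. In control BASCs the order from high to low level was let-7i, let-7e, let-7c, let-7g, let-7d, let-7b, let-7a, let-7f and miR-98. Of neighbours in that order, 3 pairs had samples that did not overlap, let-7g above let-7d, let-7d above let-7b and let-7f above miR-98, and the other 5 pairs overlapped. Within each control sample, however, all 8 neighbouring pairs stood in this order, for example let-7e above let-7c by 0.56 and 0.52 cycles, with differences down to 0.0019 cycles for let-7c above let-7g. In depleted BASCs the order was the same except that let-7a stood above let-7b, and the pairs that overlapped were let-7c with let-7g, let-7g with let-7d and let-7a with let-7b. The last 2 of these pairs also changed places between the depleted samples. The efficiency of each assay was not measured, so these orders compare CT readings of different assays.

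**Figure D1:**
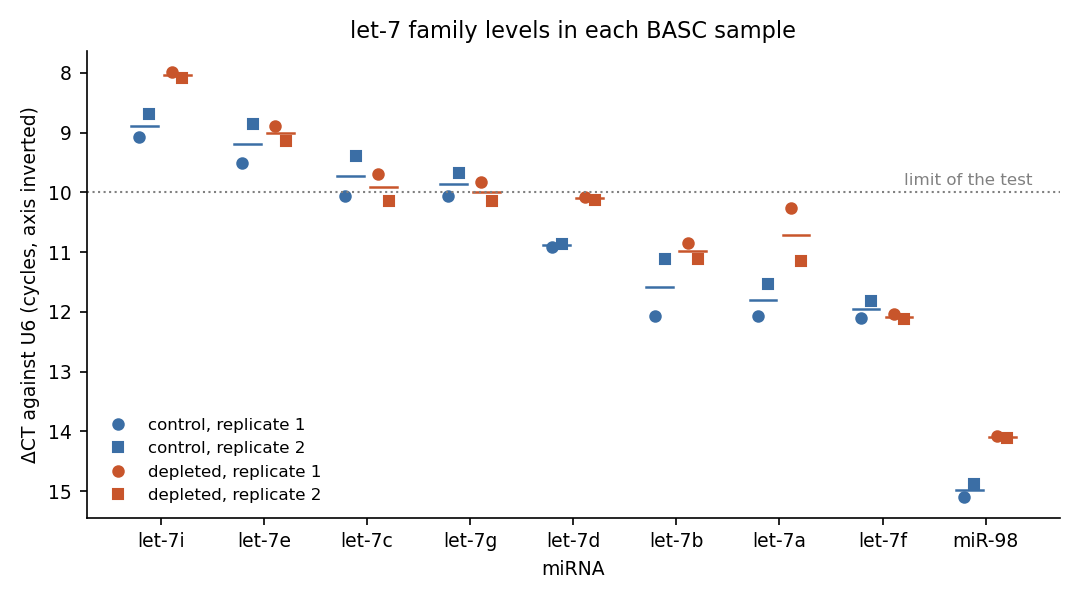
Level of each let-7 member and miR-98 in every sample, as ΔCT in PCR cycles on an inverted axis so that higher points mean more RNA; points are samples and bars are group means (n = 2). let-7i sits highest and miR-98 lowest in all 4 samples, and the depleted samples lie above both control samples for let-7a, let-7d, let-7i and miR-98.

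The most abundant member, let-7i, was higher after c-Myc depletion. Its CT was 27.97 and 27.80 in control and 26.84 and 26.92 in depleted BASCs, and its ΔCT was 9.07 and 8.69 against 7.98 and 8.08. Both depleted samples stood above both controls, and the gap between the groups was wider than the spread within either. On the log2 scale let-7i rose by 0.85 (standard error 0.19, 95% interval 0.31 to 1.39), which is 1.80-fold, with an adjusted p of 0.0428 by limma over the 80 miRNAs whose lowest ΔCT was below 10. Over these 80 miRNAs 32.5% were called at an adjusted p below 0.05 and 25.0% were called higher, so a call was common in this comparison. All 20 miRNAs called higher were among the 64 tested on card A, where let-7i was assayed. With control replicate 1 or 2 left out the change of let-7i was 0.66 or 1.04, and with depleted replicate 1 or 2 left out 0.80 or 0.90. These fits leave 1 sample in a group and cannot show whether the call depends on the sample left out. Without either depleted replicate let-7c, let-7e, let-7g and let-7i all had a standard error of 0.99, so it did not reflect the spread of let-7i. Over median centring, median centring within each card and quantile normalization the change of let-7i was 0.46, 0.34 and 0.55, none of them called. Calls were few there for all miRNAs: 3, 1 and 4 of the 80, against 26 with U6, and 1, 0 and 0 of them higher. Within each card let-7c, let-7e, let-7g and let-7i also shared a standard error, 0.76.

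let-7d and miR-98 moved by about the same amount as let-7i but were less abundant. let-7d, encoded in the chromosome 13 cluster, gave CT 29.81 and 29.96 in control and 28.94 and 28.96 in depleted BASCs. miR-98, the X-linked member, gave CT 33.99 and 33.98 in control and 32.94 and 32.95 in depleted BASCs. In both the groups did not overlap, and the replicates of a group lay closer together than the groups did. Neither reached a ΔCT below 10 in any sample, let-7d missing it narrowly with a lowest ΔCT of 10.1, where let-7g entered with 9.67. Both were therefore read from the limma fit over all 263 detected miRNAs, of which 2 (0.760%) were called at an adjusted p below 0.05. There let-7d changed by 0.79 (standard error 0.19, 95% interval 0.24 to 1.33, 1.72-fold, adjusted p = 0.125 by limma). miR-98 changed by 0.89 (standard error 0.20, 95% interval 0.30 to 1.48, 1.85-fold, adjusted p = 0.125 by limma). Neither passed the threshold, and let-7i in the same fit did not pass it either (adjusted p = 0.145 by limma). miR-98 was read close to the limit of 35, and with a limit of CT 32 no sample had a CT below it.

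let-7a, the member most often used as the family's representative, had the largest estimate and the least certain one. Its CT was 30.97 and 30.64 in control and 29.12 and 29.99 in depleted BASCs. The groups did not overlap, but the SD of ΔCT in the depleted samples, 0.632, was larger than that of either group of let-7i, let-7d or miR-98. The log2 change was 1.10 (standard error 0.44, 95% interval -0.18 to 2.37, 2.14-fold, adjusted p = 0.241 by limma over the 263). Leaving out a replicate moved it between 0.65 and 1.54.

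let-7b stood between these members and those near zero. Its CT was 30.96 and 30.22 in control and 29.71 and 29.95 in depleted BASCs. As deposited the groups did not overlap, but after subtraction of U6 they overlapped narrowly, with a ΔCT of 11.110 in control replicate 2 and 11.115 in depleted replicate 2. The log2 change was 0.61 (standard error 0.42, 95% interval -0.62 to 1.83, adjusted p = 0.453 by limma over the 263), and it was 0.13 without control replicate 1 and 1.08 without control replicate 2.

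The other 4 members, let-7c, let-7e, let-7f and let-7g, had overlapping groups and estimates near zero. let-7c, the family member shared by the chromosome 15 and 16 loci, gave CT 28.96 and 28.49 in control and 28.56 and 28.98 in depleted BASCs, a log2 change of -0.19 (standard error 0.32, 95% interval -1.13 to 0.75). let-7e, the second most abundant, gave CT 28.40 and 27.97 in control and 27.75 and 27.98 in depleted BASCs, a log2 change of 0.17 (standard error 0.28, 95% interval -0.65 to 0.99). After subtraction of U6, the samples of a group differed in both of these by more than the group means did. let-7f gave CT 30.99, 30.93, 30.90 and 30.96, in the order control 1, control 2, depleted 1 and depleted 2, so its readings spanned less than 0.1 cycles, and its log2 change was -0.12 (95% interval -0.74 to 0.50). let-7g gave CT 28.96, 28.77, 28.69 and 28.99 in the same order and a log2 change of -0.12 (95% interval -0.76 to 0.52). Adjusted p-values by limma were 0.651, 0.651 and 0.658 for let-7c, let-7e and let-7g among the 80 miRNAs and 0.759 for let-7f among the 263. The intervals of all 4 reached to -0.65 or lower and to 0.50 or higher, and the sign of each turned in at least 1 alternative processing of the data.

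**Figure D2:**
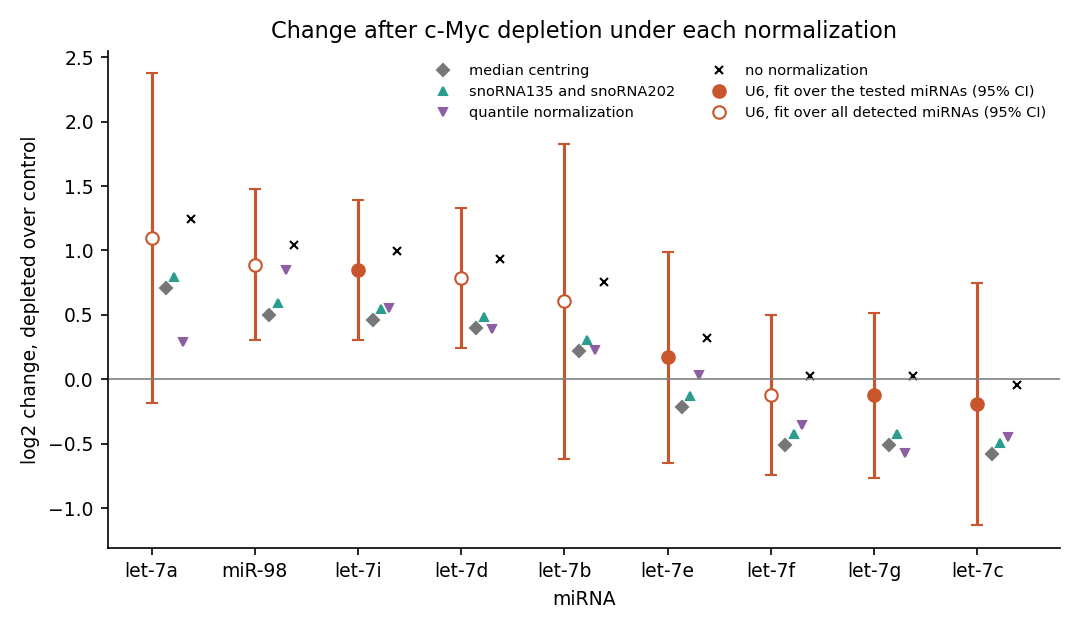
Log2 change of each member, control minus depleted ΔCT, with its 95% interval from limma (circles, filled for the 4 members tested among 80 miRNAs and open for the 5 read from the fit over 263), and the estimate under 4 other scalings beside it. Positive values mean a higher level in the depleted samples. The intervals of let-7i, let-7d and miR-98 lie above 0, and those of the other 6 members cross it.

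Counted over the family, 1 of the 4 members among the 80 miRNAs was called at an adjusted p below 0.05 by limma, and it was higher. With no filter on ΔCT 0 of 9 were called, 3 of 9 (let-7d, let-7i and miR-98) had an unadjusted p below 0.05 and were higher, against 25.5% of the 263 miRNAs in either direction and 16.3% higher. The 263 include card B miRNAs, whereas all members were on card A, and these shares were not computed for card A alone. Changes on card A ran higher, with a median log2 change of 0.28 over its 174 detected miRNAs. The methods' test, run on each miRNA alone with no filter, called 0 of 9 after adjustment and 2 of 9 at an unadjusted p below 0.05, against 19.8% of the 263, and with the filter it called 0 of 4 either way. No member met the study's criteria of a fold change above 2 with an unadjusted p below 0.05 among miRNAs with a lowest ΔCT below 10, which 16 of the 80 (20.0%) met. In 4 of the 9 members, let-7a, let-7d, let-7i and miR-98, both depleted samples lay above both controls, and in none did both lie below. Among all card A miRNAs with a CT below 35 in all samples 44.6% lay higher in this way and 13.8% lower, so the share in the family was close to that of the card. The median log2 change was 0.61 over the 9 members (quartiles -0.12 and 0.85) and 0.39 over the other 121 such miRNAs of card A (quartiles -0.13 and 0.88). Over the 80 miRNAs tested it was 0.05, and over all 263 detected -0.02. For a single member, the smallest p that exact permutation of 2 against 2 samples can give, two-sided, is 0.333.

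**Figure D3:**
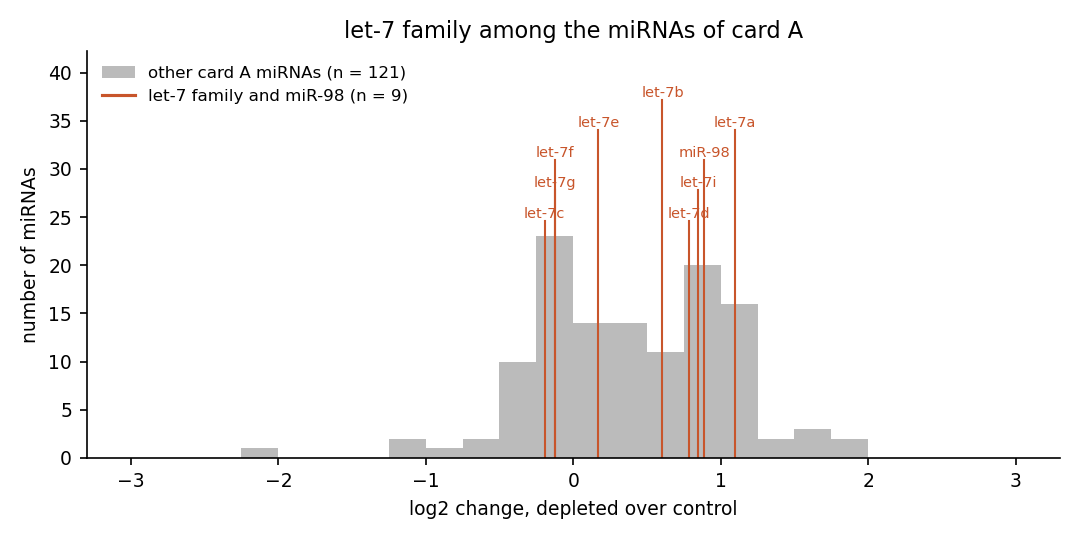
Log2 changes of the let-7 members beside those of the other card A miRNAs with a CT below 35 in all 4 samples, on a common axis. The members fall in both of the ranges where most card A miRNAs lie, near 0 and near 1, with medians of 0.61 for the members and 0.39 for the other 121.

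Differences between members in the same sample do not depend on U6, because both CT values come from the same card. let-7a and let-7c differ at 1 base, A19G with positions counted from the 5′ end of the member named first. The CT of let-7c minus that of let-7a was -2.01 and -2.14 in control and -0.56 and -1.01 in depleted BASCs, so the gap narrowed by 1.29 cycles. let-7a and let-7f, which differ by G12A and share the chromosome 13 cluster, were close in control BASCs, with let-7f later by 0.019 and 0.29 cycles, and further apart in depleted BASCs, with let-7f later by 1.78 and 0.97 cycles. For let-7a and let-7e, which differ by U9G, the CT of let-7e minus that of let-7a was -2.57 and -2.67 in control and -1.37 and -2.01 in depleted BASCs. For the last pair of this kind, let-7b and let-7c (G17A), the CT of let-7c minus that of let-7b moved by 0.80 cycles, from -2.0 and -1.73 to -1.15 and -0.98. In all 4 pairs the depleted samples lay outside the range of the controls, as they did in 24 of all 36 pairs of members. Of these 4 pairs 3 share let-7a, and the exact permutation p of 0.333 was the smallest this design allows. Readings of members that differ by 1 base thus did not move in parallel in these samples. Cross-reaction of an assay with a near-identical member was not measured on these cards.

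let-7g and let-7i, the members outside clusters, differ at 2 bases, A17G and A19U. The CT of let-7i minus that of let-7g was -0.99 and -0.98 in control and -1.85 and -2.06 in depleted BASCs, so let-7i moved further ahead. let-7f and miR-98, neighbours on the X chromosome, drew closer, with a shift of -1.01 cycles in the CT of miR-98 minus that of let-7f. let-7f and let-7g held the same distance, with overlapping samples. let-7a and let-7d, of the same cluster, shifted by 0.31 cycles with overlapping samples.

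Genes of a cluster are usually copied as 1 primary transcript, so members of the same locus were set side by side. On chromosome 13 the hairpins of let-7a and let-7f start 350 bases apart and those of let-7f and let-7d 1817 bases apart, and the log2 changes were 1.10, -0.12 and 0.79. On the X chromosome let-7f and miR-98 start 868 bases apart, with changes of -0.12 and 0.89. On chromosome 15 let-7c and let-7b start 716 bases apart, with changes of -0.19 and 0.61. Within each locus the estimates were unequal, although this design cannot take a test of that inequality below a p of 0.333 by exact permutation, and let-7a, let-7c and let-7f have genes elsewhere too. Processing of each hairpin follows transcription and was not measured.

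Outside the family, the let-7 loci of chromosomes 9, 16 and 17 also hold miRNAs of the miR-99/100 and miR-125 families, the latter counterparts of lin-4 of worms. Next to let-7c on chromosome 16, miR-99a starts 721 bases away and rose by 0.86 on the log2 scale (standard error 0.19, adjusted p = 0.0434 by limma), with ΔCT 8.73 and 8.85 in control and 7.74 and 8.14 in depleted BASCs. miR-125b-5p, made there and on chromosome 9, changed by 1.10 (standard error 0.14, adjusted p = 0.0138 by limma), from ΔCT 6.07 and 6.27 to 5.01 and 5.13. Both rose while let-7c did not pass the test. The 2 depleted CT values of miR-125b-5p carried 8 decimals in the deposited table, whereas those of the let-7 members had at most 6.

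miR-100, whose gene on chromosome 9 starts 5291 bases from a let-7a gene, had ΔCT 9.07 and 8.38 in control and 8.11 and 8.0 in depleted BASCs (log2 change 0.67, adjusted p = 0.187 by limma). Around let-7e on chromosome 17, miR-99b starts 158 bases away and had ΔCT 8.07 and 7.35 against 6.99 and 7.12 (log2 change 0.65, adjusted p = 0.210 by limma). miR-125a-5p, 460 bases from let-7e, had ΔCT 8.09 and 7.86 against 8.05 and 8.16, a log2 change of -0.13. Of the 7 assayed strands of these neighbours 5 were tested, of which 2 rose and 3 did not pass, with a median change of 0.67. Over the 80 tested miRNAs 25.0% were called higher, all 20 of them among the 64 on card A, which held these neighbours. The median change over those 64 was 0.23. The remaining strands were faint. miR-125a-3p gave CT 33.98, 33.40, 33.65 and 32.95 and miR-125b-3p gave CT 32.82, 33.00, 31.89 and 32.98, in the order control 1, control 2, depleted 1 and depleted 2. The calls of miR-99a and miR-125b-5p were lost under each of median centring, snoRNA reference and quantile normalization. Calls over all 80 miRNAs numbered 3, 18 and 4 there. That of miR-99a was also lost without any 1 of the 4 samples (adjusted p = 0.0914 to 0.997 by limma), and that of miR-125b-5p without either depleted sample (adjusted p = 0.997 and 0.977 by limma).

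**Figure D4:**
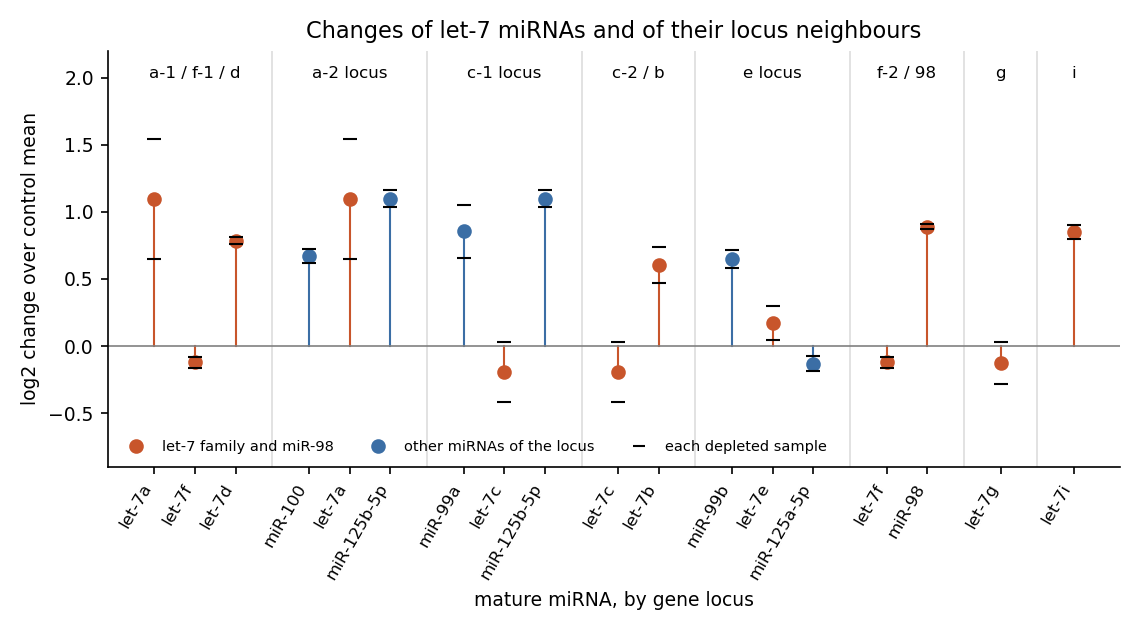
Log2 changes of let-7 members and of the miRNAs beside them, grouped by locus, with circles at the mean change against the control mean and black ticks at each depleted sample; members with several genes appear at each of their loci. All 3 miRNAs of the chromosome 9 locus lie above 0.5, and each other cluster holds both a miRNA within 0.2 of 0 and one above 0.5.

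A further set of 19 miRNAs that c-Myc represses in other cells, such as those of the miR-15, miR-29 and miR-30 families and none of them a let-7 member, was detected in full. Of the 10 that were tested, 3 were higher in depleted BASCs, none was lower and 7 did not pass at an adjusted p below 0.05 by limma, against 25.0% called higher over all 80. Their median log2 change was 0.02, beside 0.05 over the 80.

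The passenger strands, cut from the same hairpins as the guides and normally degraded, were assayed on card B in 2 wells each. Of 7 mouse let-7 passenger assays, those for let-7b*, let-7d* and let-7f* gave no CT in any well, and let-7a* was the single one with a CT in every well. The first well of let-7a* read 32.87 and 32.96 without and 32.61 and 32.24 with c-Myc depletion, and the second read 32.47 and 32.78 against 32.06 and 31.94. The mean of its wells was thus lower in both depleted samples than in either control, while U6 on card B was also lower in the depleted samples, by 0.72 cycles. For let-7c-1*, let-7g* and let-7i* the wells of a sample differed by having a CT or none, and over all 7 assays 22 of 56 wells gave a CT. The rat assay for let-7e* gave none.

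Copies per cell were computed from the unnormalized CT with the formula of the methods, a calibration on a synthetic RNA that does not measure each assay's efficiency. let-7i came to 193 ± 16.3 copies in control and 384 ± 14.9 in depleted BASCs, and let-7e to 159 ± 33.2 and 196 ± 22.2. let-7c stood at 109 ± 24.7 and 106 ± 21.6, and let-7g at 98.1 ± 8.93 and 100.3 ± 14.2. miR-98 was the scarcest, at 2.87 ± 0.00478 and 5.89 ± 0.0257 copies. Between these lay let-7d (48.5 ± 3.58 and 92.4 ± 1.21), let-7b (30.9 ± 10.9 and 50.6 ± 6.03), let-7a (26.0 ± 4.21 and 63.7 ± 26.3) and let-7f (23.2 ± 0.686 and 23.6 ± 0.645). The family total was 623 and 758 copies in control and 1099 and 948 in depleted BASCs, so the groups did not overlap (exact two-sided permutation p = 0.333, the smallest possible). This was not particular to the family. The level relative to U6, multiplied by 1000 and summed over card A mouse miRNAs, was 422 and 474 in control and 554 and 517 in depleted BASCs, also without overlap. let-7i made up 29.2% and 27.0% of the family total of copies in control and 35.9% and 39.5% in depleted BASCs. The share of let-7c ran the other way, from 14.7% and 16.7% to 11.0% and 9.58%, without overlap, while its copies overlapped.

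The deposited CT values were not spread evenly over fractions of a cycle, which bears on how small changes of the family can be read. Of the 36 CT values of the members, 23 (63.9%) had a decimal part of 0.9 or more, against 323 of 616 (52.4%) for the other mouse miRNAs of card A and 10 of 32 U6 wells. This held for 7 of 9 members in control replicate 1, 4 in control replicate 2, 3 in depleted replicate 1 and all 9 in depleted replicate 2, where 54.5% of all wells with a CT had such a decimal part. The change of unnormalized CT between group means lay within 0.1 of a whole cycle in 6 of 9 members. It was near 0 for let-7c, let-7f and let-7g (-0.04, 0.03 and 0.03) and near 1 for let-7d, let-7i and miR-98 (0.94, 1.0 and 1.04), whereas let-7a (1.25), let-7b (0.76) and let-7e (0.32) fell elsewhere. Of the other 121 card A miRNAs with a CT below 35 in all samples, 40 (33.1%) lay within 0.1 of a whole cycle, 21 near 0 and 17 near 1.

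The small nucleolar RNAs used as further controls were present on both cards and showed steps of the same size. Control minus depleted CT on card A was 1.07 cycles for snoRNA135 and -0.17 for snoRNA202. On card B, measured in the same samples, it was -0.017 for snoRNA135 and 1.0 for snoRNA202. The same RNA therefore showed a difference of about 1 cycle on one card and almost none on the other. Scaling to the mean of these 2 RNAs carries the card A difference of snoRNA135 into the changes given under the snoRNA reference. The part of these steps in the let-7 changes was not tested.

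**Figure D5:**
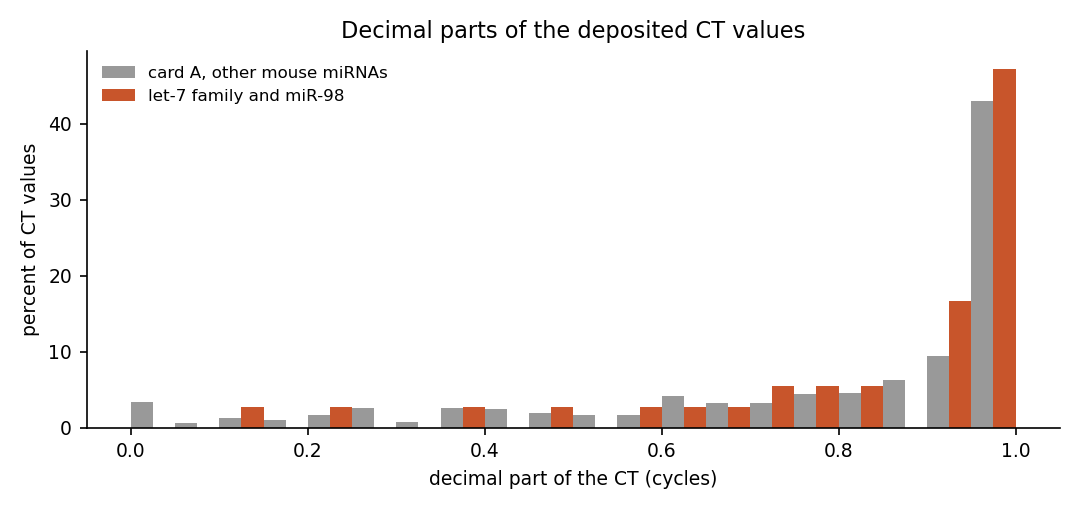
Distribution of the decimal part of the deposited CT values, as the percent of values in each step of 0.05 cycles, for the let-7 members and for the other mouse miRNAs of card A. Both pile up at the right end, where 63.9% of the member values and 52.4% of the others have a decimal part of 0.9 or more.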

How the data were processed

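The authors deposited 1 table of threshold cycles (CT, in PCR cycles) read by the instrument's software for 768 wells in 4 samples, not normalized. Partek 6.4 is named in the submitters' processing notes. The labels name SYBR Green as label, whereas the running protocol and the methods describe TaqMan assays. Values of other samples were in 0 columns.

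As in the methods, 35 replaced every CT that was missing or higher, and the mean U6 CT of the same card was subtracted (ΔCT). limma 3.58.1 in R 4.3.3 (lmFit, eBayes) was run on minus ΔCT over the 80 mouse miRNAs with a lowest ΔCT below 10, with Benjamini-Hochberg adjustment, and over the 263 detected (CT below 35 in at least 1 sample) for members outside that filter. Intervals are at 95%. Copies per cell followed the methods: the exponent (40 - CT)/3.34 was applied to base 10 and the result divided by 22. Tables and figures used Python 3.11.15, numpy 2.4.6, pandas 2.3.3, scipy 1.17.1 and matplotlib 3.10.9.

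The fit was tested on simulated ΔCT of 400 miRNAs, 100 of them shifted by 1.5 (log2), in 30 runs: it recovered 55.2% of those shifted, and 4.05% of its calls were false. That shift was larger than the main estimate of any let-7 member (1.10 or lower). The noise was drawn independently for each miRNA, with no shared U6 error. These shares therefore do not carry over to changes of the size seen here. With 2 samples a group, 2 residual degrees of freedom per miRNA limit the precision.

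Members were the let-7 guide strands and miR-98, by name. Besides them, a separate rule set which miRNAs the text names: the members' passenger strands, the other miRNAs of their loci, the reference RNAs and the 3 miRNAs with the nearest profile. miR-126-3p was named after its values were seen. Members and lists were chosen with earlier results of these data known. Alternatives were other normalizations, ceilings and filters, a variance trend, one-way ANOVA per miRNA, a replicate block and leaving out each sample. The labels give both groups the replicate numbers 1 and 2 but do not say that they pair samples. A block with crossed numbers was added after the data were seen. No genome build applies to the cards, and loci are those of RefSeq on GRCm38.p6.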

Additional observations from a re-analysis of the deposited data

How the results depend on the processing

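The count of members with an adjusted p below 0.05 by limma (1) was 0 under median centring, median centring within each card, quantile normalization, one-way ANOVA per miRNA, the replicate block and no filter on ΔCT, and 0 to 1 when a sample was left out. With the replicate block the count over all 80 miRNAs was also 0, and with crossed numbers, which follow a correlation of -0.44 between the deviations of same-numbered samples over 80 miRNAs, it was 33. The count past the study's criteria (0) was 0 to 1 when a sample was left out, 1 without control replicate 2. The median change of the members (0.61) was 0.22 under median centring, 0.10 within each card, 0.30 with the snoRNAs, 0.23 under quantile normalization, 0.76 without normalization, 0.17 with a ceiling of CT 32, 0.51 over the 2 members with ΔCT below 10 in all samples, and 0.13 to 0.82 with a sample left out. The sign turned for let-7c with a sample left out (-0.53 to 0.15), for let-7e under median centring (-0.22), within each card (-0.33), with the snoRNAs (-0.13) and with a sample left out (-0.15 to 0.49), for let-7f without normalization (0.028) and with a sample left out (-0.26 to 0.013), and for let-7g without normalization (0.028) and with a sample left out (-0.32 to 0.076). miR-98 turned with the ceiling of CT 32 (-0.15), where every sample was set to the ceiling, and miR-125a-5p without normalization (0.021). let-7i, let-7d, let-7a and let-7b kept their sign in all settings run. With the ceiling of CT 32 let-7a and let-7d passed the threshold (adjusted p = 0.0492 and 0.0295 by limma), and miR-98 did without normalization (0.0494). At that ceiling the estimates of let-7a and let-7d were unchanged (1.10 and 0.79). Their standard errors fell from 0.44 to 0.34 and from 0.19 to 0.17, in a fit where every CT above 32 was set to 32. The median change over the 80 miRNAs was 0.05, against -0.27 under median centring, -0.18 with the snoRNAs and 0.27 without normalization. The total number of calls, 26, was 3, 1 and 4 under median centring, centring within each card and quantile normalization, 3 with the ANOVA and 0 to 25 with a sample left out. The causes of these differences were not tested.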

Other observations

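Among the other 76 tested miRNAs, the profiles nearest to the median profile of let-7c, let-7e, let-7g and let-7i over the 4 samples were those of miR-93, miR-28 and miR-10a. Each profile was minus ΔCT centred on its own mean, and the root mean square distances were 0.051, 0.068 and 0.082 cycles. miR-93 belongs to a paralogous cluster of miR-17-92, and miR-10a lies in a Hox gene cluster. Their log2 changes were 0.07, -0.02 and 0.00. The median profile does not show let-7i, the member of these 4 that rose. This is a description over 4 samples, with no test.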
